A study of Mus musculus with 5 samples.

Results

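The genes examined in mouse liver were 5 of hepatic sugar use: Gpi1, Pfkl, Khk, Pgk1 and Gys2. They were chosen by name, as enzymes of glycolysis, fructose use and glycogen synthesis, with earlier results of these data known. Counts of them set beside shares of all probe sets are therefore descriptions. Every array probe set annotated with 1 of these symbols alone was taken. Of the 5 genes, 4 had such a probe set, 7 probe sets in all among 20380 with 1 gene symbol, which stand for 12393 genes. Gpi1, the glucose 6-phosphate isomerase gene, has no probe set of that symbol in the annotation used here and was not analysed here.

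Liver RNA of C57B/L mice was measured on 5 arrays, 1 for each group, and each array carried RNA from pooled livers. All mice were 8 weeks old and were maintained for 2 weeks before the feed began. Chow groups received standard chow for 1 week or for 10 weeks, and diet groups received an atherogenic diet for 1 week or for 10 weeks. The fifth group received the atherogenic diet for 10 weeks with atorvastatin, an inhibitor of cholesterol synthesis, in the final 3 weeks. How many livers made a pool, what the feed contained and which sex was used could not be taken from the labels. For the array of the diet at 1 week the source name reads chow while the title names the diet, and the title was followed. There are no replicates, so no test was made, no error can be attached to a signal, and each statement describes these pools. Values are signals on a linear scale, and a log2 ratio of 1 is a 2-fold difference. Signals under the floor of 138.7, the 40th percentile of all signals, were set to it; all 7 member probe sets lay above it on all 5 arrays.

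Liver cells take up glucose, phosphorylate it, and send glucose 6-phosphate to glycolysis, to glycogen or to the pentose phosphate pathway. Phosphofructokinase, whose liver subunit is encoded by Pfkl, commits fructose 6-phosphate to glycolysis, and phosphoglycerate kinase, encoded by Pgk1, makes ATP further down the same path. Ketohexokinase, encoded by Khk, phosphorylates fructose and so brings it in below the phosphofructokinase step. The liver glycogen synthase encoded by Gys2 extends glycogen chains and is the store-building counterpart of the liver glycogen phosphorylase. Carbohydrate feeding is known to raise several genes of this path through the transcription factor encoded by Mlxipl, also called ChREBP, which binds E-box elements.

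Sequences before the start sites are shown because Khk and Pfkl share their highest array, as given further on, while Pgk1 is a textbook carrier of hypoxia response elements. They come from RefSeq on build GRCm38.p6, which held a window of 300 bases (250 before the start and 50 after) for Gpi1, Pfkl, Khk and Pgk1; 30 bases around each match are printed 5′ to 3′ on the gene's strand, with the motif in capitals.
Khk, chr5:30921476-30921505, plus strand: agcgttccccgtCACGTGacaccgttaatc
Pgk1, chrX:106186937-106186966, plus strand: cgcgtcgtgcaggACGTGacaaatggaagt
Pgk1, chrX:106186956-106186985, plus strand: caaatggaagtagCACGTctcactagtctc
Pfkl, chr10:78009890-78009919, minus strand: catttgtagactgGCGTGcgctccgccttt
The E-box core CACGTG, searched on both strands, began 71 bases before the Khk start and was in 7.15% of 32851 windows of this length. That start site lies inside the annotated span of Khk on chromosome 5 (30921436 to 30931248), so the stretch also lies within the span of the gene. The hypoxia element cores ACGTG and GCGTG, searched on both strands, were in 19.6% and 32.4% of windows; the CACGTG of Khk also contains ACGTG. In Pgk1 the core ACGTG began 150 bases before the start, and its reverse complement CACGT began 131 bases before it. In Pfkl the core GCGTG began 99 bases before the start, and the window of Gpi1 held none of the 3 motifs. The windows of Pfkl and Pgk1 held no CACGTG and that of Khk no GCGTG. As exact strings none of the 3 motifs was in both Khk and Pfkl, but each window held a hypoxia element core, ACGTG or GCGTG. Whether these motifs bear on the shared highest array was not tested. A match describes the letters of the window and is not a measured binding site.

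Gys2 had the clearest diet pattern of the 4 genes: its signal was higher on the diet than on chow at both feeding times and near the chow level with atorvastatin. Probe set 1424815_at read 1529 on chow and 2345 on the diet at 1 week. At 10 weeks it read 1255 on chow, 2313 on the diet and 1303 on the diet with atorvastatin. Both diet arrays without the drug stood above the other 3 arrays, and the diet arrays differed from each other by 1.01-fold. The step from the higher chow array to the lower of these diet arrays was 1.51-fold, the largest of the 28 steps between neighbouring arrays over the 7 member probe sets. In log2 terms Gys2 was higher on the diet by 0.88 at 10 weeks and by 0.62 at 1 week. With atorvastatin its log2 ratio was -0.83 against the diet and 0.05 against chow at 10 weeks. The atorvastatin and 10-week diet comparisons share the 10-week diet array, so a deviation of that array enters both with opposite signs; the 1-week diet comparison shares no array with either. With the chow array of 1 week as the reference, Gys2 had 0.60 for the diet at 10 weeks, and the atorvastatin ratio against chow turned to -0.23.

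**Figure D1:**
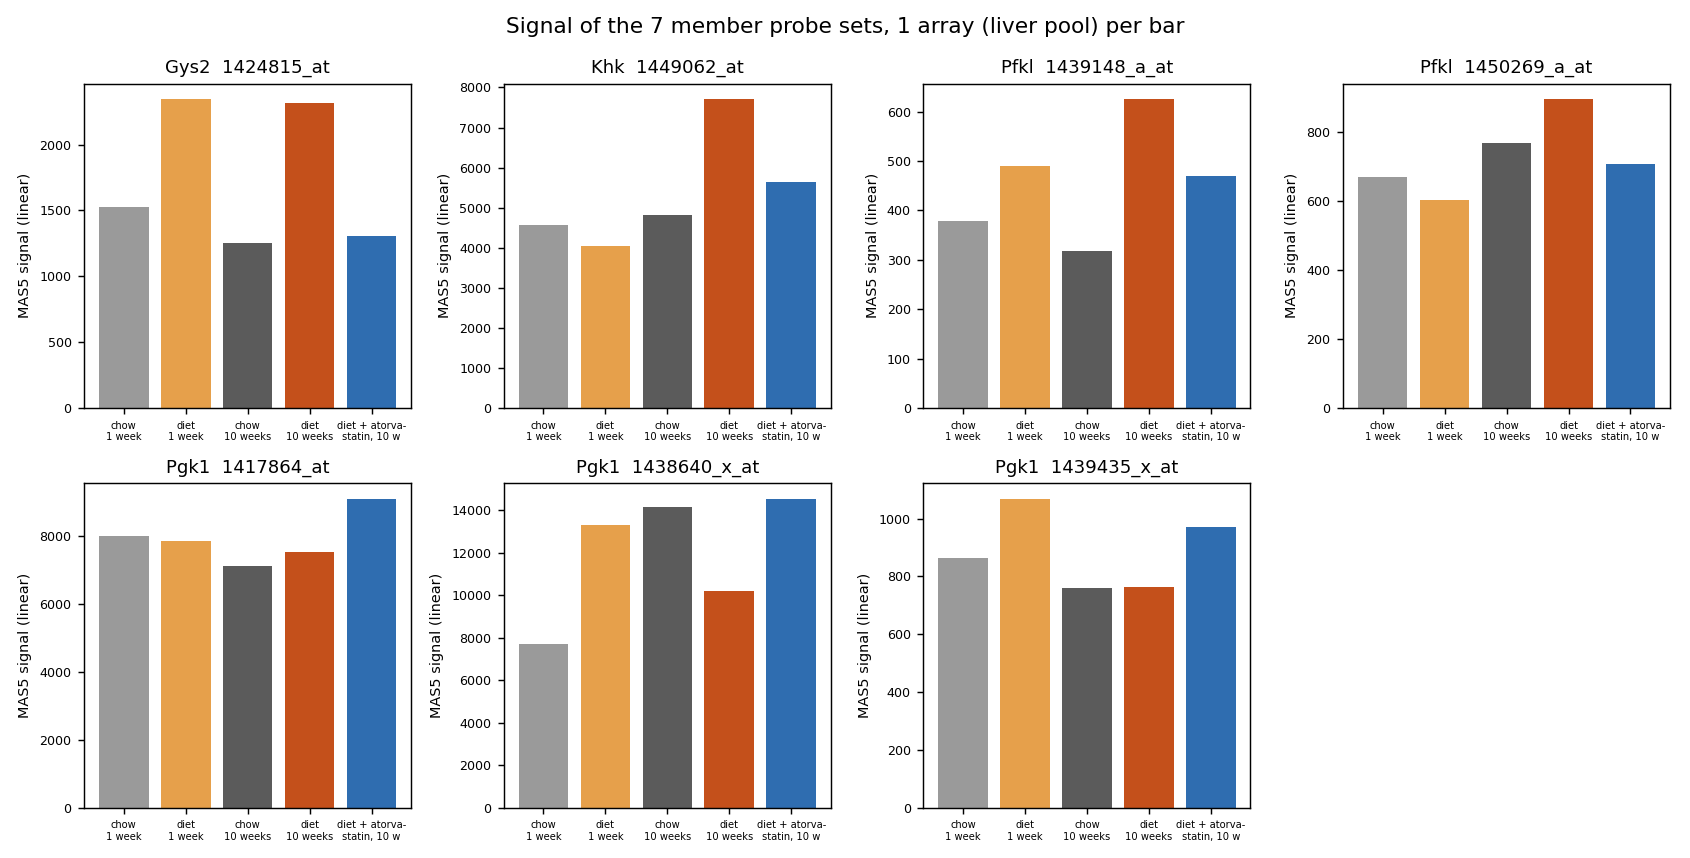
Signal of each member probe set on a linear axis that starts at 0, in arbitrary MAS5 units, with 1 bar for each array and no error bars because each group is 1 array. Gys2 is highest on both diet arrays without atorvastatin (2345 and 2313), Khk on the 10-week diet array alone (7709.6), and the 3 Pgk1 probe sets have no order in common.

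Khk was highest on the 10-week diet array and lowest on the 1-week diet array. Probe set 1449062_at read 4569 on chow and 4038 on the diet at 1 week, and 4813 on chow, 7709.6 on the diet and 5634 with atorvastatin at 10 weeks. The 10-week diet array stood 1.37-fold above the next array, the one with atorvastatin, while the lower 4 arrays followed each other in steps of 1.05-fold to 1.17-fold. The log2 ratio was 0.68 at 10 weeks and -0.18 at 1 week of diet. Between the chow arrays it was 0.08, and it was -0.01 there with cyclic loess, so the chow pair gives no direction. Khk was higher by 0.93 on the diet at 10 weeks than on the diet at 1 week, the largest diet-time ratio among the member probe sets. In the same comparison 3 control probe sets of Gapdh were higher by 0.53 to 0.81, and 7 of 8 hepatocyte markers were higher (median 0.51). The Khk ratio is thus not set apart from these. With atorvastatin Khk read -0.45 against the diet and 0.23 against chow. With the chow array of 1 week as the reference, Khk had 0.75 for the diet at 10 weeks.

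Pfkl also had its highest signal on the 10-week diet array with both of its probe sets, but the probe sets differed in size. With 1439148_a_at the signals were 379 on chow and 491 on the diet at 1 week, and 318 on chow, 626 on the diet and 469.5 with atorvastatin at 10 weeks. Here each of the 3 diet arrays stood above both chow arrays. With 1450269_a_at the signals were 667 on chow and 603 on the diet at 1 week, and 767 on chow, 894 on the diet and 707 with atorvastatin at 10 weeks. Here the chow and diet arrays were interleaved, and the 1-week diet array was the lowest. The 10-week diet ratio on the log2 scale was 0.98 with the first probe set, just inside 2-fold, and 0.22 with the second. At 1 week the ratios were 0.37 and -0.15, of opposite sign. With atorvastatin against the diet they were -0.41 and -0.34, of the same sign. The mean of both probe sets gave 0.60, 0.11 and -0.38 for these comparisons.

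Pgk1 is measured by 3 probe sets, and they did not share a pattern across the diet comparisons. The signals of 1417864_at were 7985 on chow and 7857 on the diet at 1 week, and 7100.2 on chow, 7536 on the diet and 9085.5 with atorvastatin at 10 weeks. The highest and lowest of these differ by 1.28-fold, the narrowest span of the member probe sets. The signals of 1438640_x_at were 7722 on chow and 13322 on the diet at 1 week, and 14139 on chow, 10197 on the diet and 14545 with atorvastatin at 10 weeks. This probe set was low on the 1-week chow array and spanned 1.88-fold. The signals of 1439435_x_at were 862 on chow and 1068 on the diet at 1 week, and 760.4 on chow, 762 on the diet and 969 with atorvastatin at 10 weeks. An x in such a name marks a probe set with probes that can also match other sequences, so signals of related sequences cannot be separated in the latter pair.

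In the diet comparison at 10 weeks the Pgk1 log2 ratios were 0.09, -0.47 and 0.00 in the order just given, and at 1 week they were -0.02, 0.79 and 0.31. The ratio of 0.00 at 10 weeks and that of -0.02 at 1 week changed sign with quantile normalization and with cyclic loess, and that of 0.09 was -0.08 with the chow array of 1 week as the reference, so these 3 have no direction. For 1438640_x_at the chow arrays alone differed by 0.87, and the 10-week diet ratio was 0.40 in place of -0.47 when the 1-week chow array was the reference. With atorvastatin against the diet all 3 Pgk1 probe sets were higher, by 0.27, 0.51 and 0.35. In that comparison Pgk1 thus ran opposite to Gys2, Khk and both Pfkl probe sets, which were lower. The 3 control probe sets of Gapdh had -0.50 to -0.39 there, so the Khk and Pfkl ratios are not set apart from these. A difference between genes was not tested.

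Across the 7 member probe sets, 0 passed 2-fold in any of the 6 comparisons. The share of all measured probe sets past 2-fold, in either direction, was 7.07% for the diet at 10 weeks, 2.94% for the diet at 1 week, 4.49% for atorvastatin against the diet, 5.90% for atorvastatin against chow, 10.2% for the diet at 10 weeks against 1 week and 4.63% for the chow pair. At a looser 1.5-fold rule, 3 of 7 were past it for the diet at 10 weeks (Gys2, Khk and Pfkl 1439148_a_at, all higher), against 25.9% of 13853 probe sets. At 1 week 2 of 7 were past it (Gys2 and Pgk1 1438640_x_at, both higher), against 16.2% of 13182. Atorvastatin against the diet gave 1 of 7, Gys2, which was lower, against 20% of 13883, and atorvastatin against chow gave 0 of 7, against 23.0%. The diet at 10 weeks against 1 week gave 1 of 7, Khk, against 32.3%, and the chow pair gave 1 of 7, Pgk1 1438640_x_at, against 20.7%. The counts are small, and a share of 1 or 0 in 7 is not above these backgrounds. The median log2 ratio of the 7 was 0.22 for the diet at 10 weeks, 0.31 at 1 week and -0.34 for atorvastatin against the diet, where all probe sets had medians of 0.04, -0.03 and -0.02. The 7 probe sets stand for 4 genes and are not independent, and the median at 1 week is the value of Pgk1 1439435_x_at. By brightest probe set, Khk and Pfkl were negative at 1 week (-0.18 and -0.15) and Gys2 and Pgk1 positive (0.62 and 0.79). The medians thus do not describe a shift common to the genes.

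**Figure D2:**
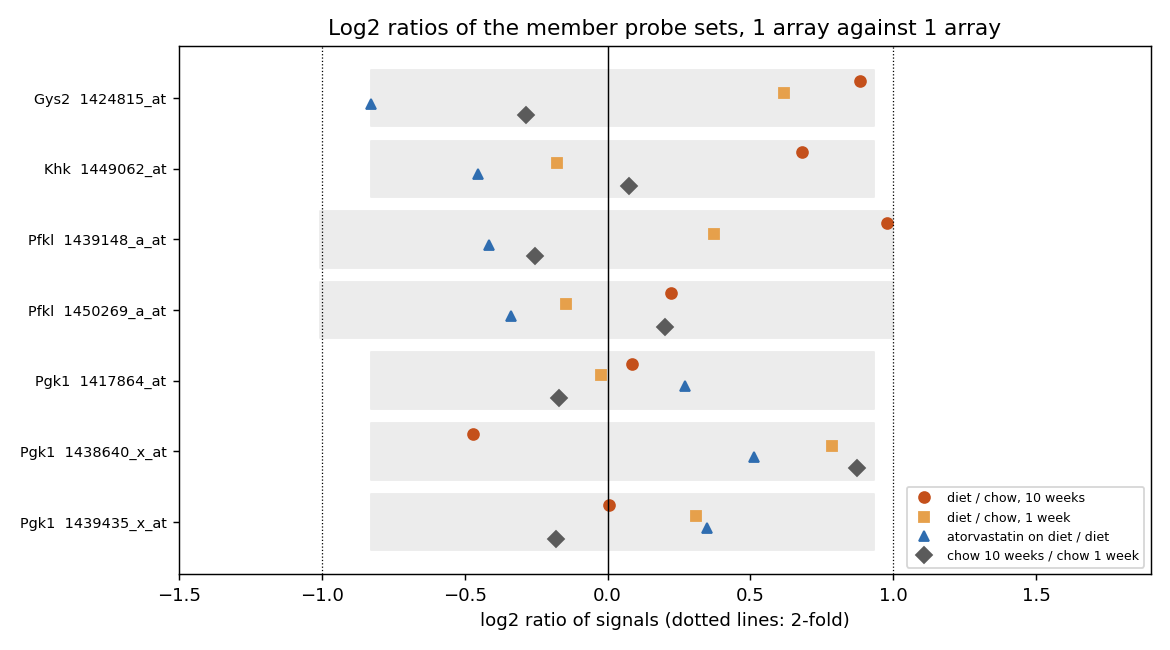
Log2 ratio of 1 array to another for each member probe set (x axis), with symbols for 4 comparisons and dotted lines at 2-fold. Grey bands hold the central 95% of ratios between both chow arrays for probe sets of the same signal quartile; Gys2 with atorvastatin, at -0.83, lies at the edge of its band and the other points lie inside theirs.

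The chow arrays share their feed and differ in time on it and in age, and they give a scale for these ratios. Among probe sets of the highest signal quartile, which holds Gys2, Khk and Pgk1, 95% of chow-pair ratios lay between 1.77-fold lower and 1.91-fold higher. In the next quartile, which holds Pfkl, the limits were 2.01-fold and 2.00-fold. Every member ratio in the 6 comparisons lay inside these limits except Gys2 with atorvastatin against the diet, which lay at the limit. The largest step between neighbouring arrays of a member, 1.51-fold, was also within them. The 10-week chow array had the lowest signal for 4 of the 7 member probe sets and the 10-week diet array the highest for 3. Pgk1 1417864_at and 1439435_x_at are both among the 4, and both Pfkl probe sets are among the 3. The share of all probe sets with these extremes was not computed, so the counts give no trait of the members.

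The other genes of sugar use were taken from 7 lists, which name 59 genes and were written with earlier results of these data known. The counts beside shares of all genes are thus descriptions. Of the 59 genes, 47 had a probe set of that symbol alone, and each gene is represented by the brightest. Of 42 measured in the diet comparison at 10 weeks, 4 were at least 2-fold higher (Gckr, Pklr, Ldhb and Mlxipl), against 3.63% of all genes, and 3 at least 2-fold lower (Hk2, Pygb and G6pc), against 3.07%. At 1 week of diet 0 of 43 were past 2-fold in either direction, against 1.06% higher and 1.25% lower of all genes. With atorvastatin against the diet 2 of 42 were higher (Hk2 and Pygb) and 1 lower (Pklr), each against 2.17%. Between the chow arrays 1 of 43 was higher (Pygb), against 2.46%, and 2 lower (Ldhb and Pgm2), against 1.97%. With atorvastatin against chow 0 of 42 were higher, against 3.08%, and 2 lower (G6pc and Pck1), against 2.48%. With the chow array of 1 week as the reference for the diet at 10 weeks, Gckr, Pklr and Mlxipl were still past 2-fold higher (1.18, 1.34 and 1.09). G6pc had -0.76 there, and Hk2 and Pygb had bounds of -0.54 and -0.12. With that reference Pkm (a bound of 1.25) and Pgd (1.06) were also past 2-fold higher, and Pgm2 (-1.06) was past 2-fold lower. On the diet at 10 weeks against 1 week 3 of 41 were higher (Pklr, Pkm and Slc2a5), against 4.85%, and 0 lower, against 3.69%. The list medians of the pathway genes were 0.12, -0.04 and -0.17 for the diet at 10 weeks, the diet at 1 week and atorvastatin against the diet, where the medians of all genes were 0.05, -0.03 and -0.02.

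**Figure D3:**
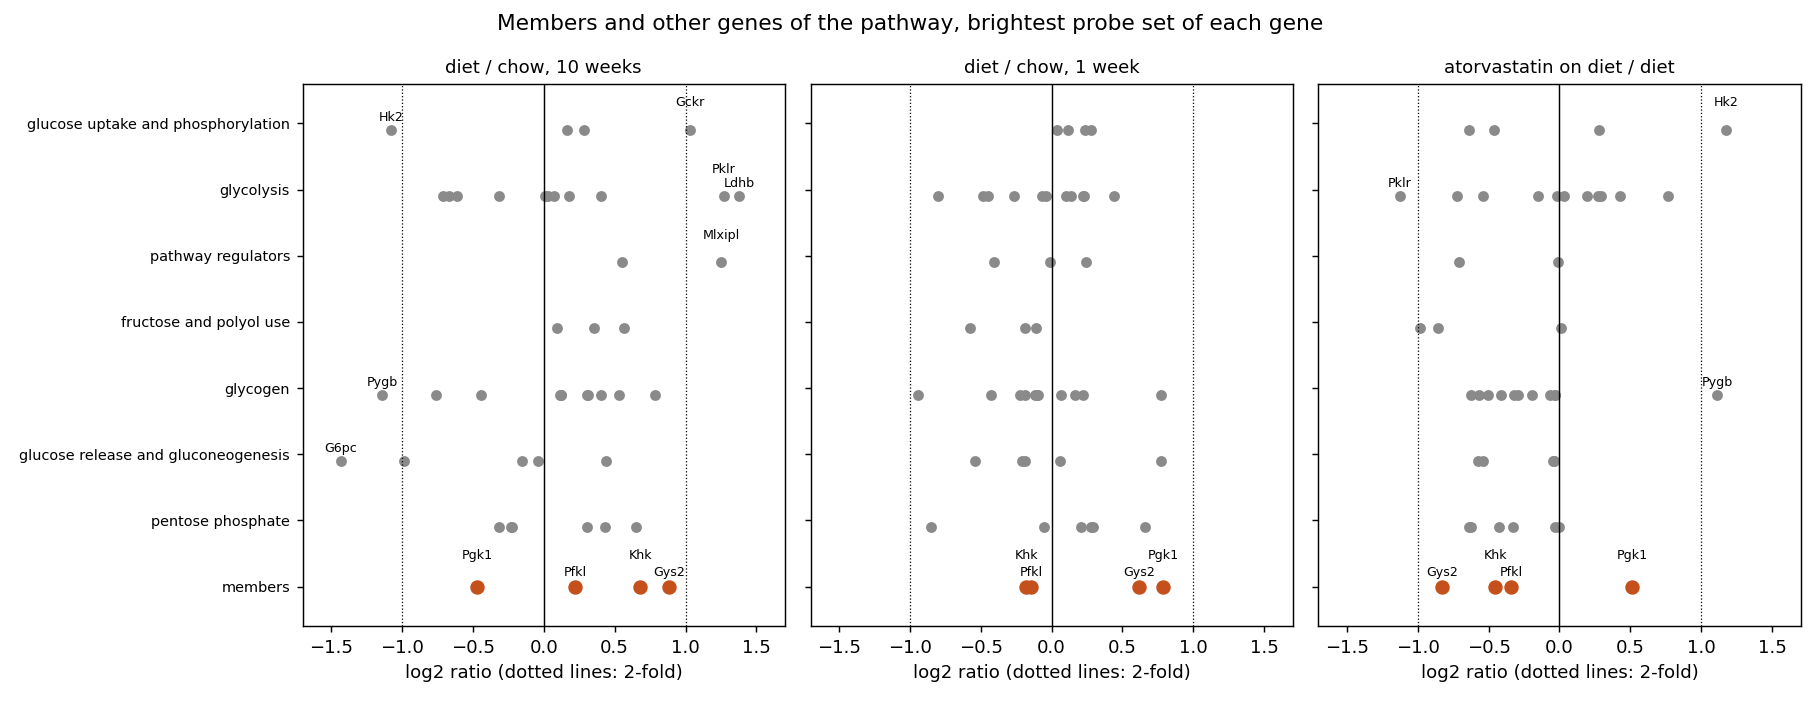
Log2 ratio (x axis, dotted lines at 2-fold) of the members, in orange, and of the other genes of the 7 lists, in grey, with 1 point for the brightest probe set of each gene and names for genes past 2-fold. Pklr, Ldhb, Mlxipl and Gckr lie past 2-fold higher for the diet at 10 weeks and G6pc past 2-fold lower, Pklr lies past 2-fold lower with atorvastatin, and Hk2 and Pygb are bounds because their signal on the 10-week diet array was at the floor.

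In glycolysis, Pklr acts beside the members and encodes the liver pyruvate kinase of the last glycolytic step. Its brightest probe set read 870.2 on chow and 499 on the diet at 1 week, and 914 on chow, 2202 on the diet and 1010.3 with atorvastatin at 10 weeks. The 10-week diet array stood above all others, as it did for Khk and Pfkl. The log2 ratio was 1.27 for the diet at 10 weeks and -1.12 with atorvastatin against the diet, and a second probe set, 1438711_at, gave 1.64 and -2.02. Another, 1421259_at, was at least 10.1-fold higher on the diet at 10 weeks, where chow was at the floor, and -2.76 with atorvastatin. At 1 week the brightest gave -0.80 and 1438711_at gave 0.14, of opposite sign. Pkm, the gene of the other pyruvate kinase form, was 2.04-fold higher on the diet at 10 weeks than at 1 week. Between the chow arrays Pkm was likewise at least 1.79-fold higher at 10 weeks, with the 1-week signal at the floor. For the diet at 10 weeks against chow it had 0.41. Ldhb, a lactate dehydrogenase subunit gene, had 1.38 at 10 weeks with its brightest probe set, 0.01 with 1448237_x_at, and was at least 1.46-fold lower with 1455235_x_at. With the chow array of 1 week as the reference the brightest gave -0.07, so Ldhb has no settled direction. Tpi1, the triosephosphate isomerase gene, had 0.01 at 10 weeks and 0.10 at 1 week with the brightest of its 3 probe sets, and the others gave 0.25 and -0.13 at 10 weeks. Gapdh is measured here by 3 control probe sets, which were left out of the counts; they gave 0.16 to 0.33 for the diet at 10 weeks and -0.50 to -0.39 with atorvastatin.

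In glucose phosphorylation, Gckr, which encodes a regulatory protein of this step, had signals of 1538 and 1863 on chow and diet at 1 week, and of 1700.5, 3482 and 2237 on chow, on the diet and with atorvastatin at 10 weeks. It was 2.05-fold higher on the diet at 10 weeks, and its ratio with atorvastatin was -0.64. The hexokinase gene Hk2 was at least 2.11-fold lower on the diet at 10 weeks and at least 2.26-fold higher with atorvastatin, both against a 10-week diet signal at the floor. Mlxipl, the factor named above, read 1430.2 and 1694 at 1 week and 1280.5, 3046 and 1859.5 at 10 weeks in the same order. Its log2 ratio was 1.25 at 10 weeks, 0.24 at 1 week and -0.71 with atorvastatin.

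Beside Gys2 in glycogen synthesis, Ugp2, whose enzyme makes the UDP-glucose that glycogen synthase uses, has 5 probe sets. All 5 were higher on the diet at 10 weeks, by 0.23 to 0.88 on the log2 scale, and all 5 were higher at 1 week, by 0.07 to 1.29. All 5 were lower with atorvastatin, from -0.68 to -0.31. In each of these 3 comparisons Ugp2 thus had the sign of Gys2; the probe sets of a gene share its RNA and are not replicates. Gbe1, the glycogen branching enzyme gene, had 0.12 at 10 weeks, -0.22 at 1 week and -0.56 with atorvastatin. Pygl, the liver glycogen phosphorylase gene, had 0.31, -0.10 and -0.63 in that order. Of 11 measured glycogen genes, 10 had negative ratios with atorvastatin against the diet, where 52.5% of all genes were negative, but Pgm1, Pgm2 and Gsk3b were close to 0 (-0.03, -0.03 and a bound of -0.07). The exception was Pygb, the brain form of the phosphorylase, at least 2.16-fold higher. Negative ratios in this comparison were not particular to glycogen genes. Over all 7 lists 32 of 42 genes were negative. These included 6 of 6 in the pentose phosphate list, 5 of 5 in glucose release and gluconeogenesis, and 5 of 11 in glycolysis. Here too some were close to 0: Taldo1 (-0.0009) and Rpia (-0.03) of the pentose phosphate list. In glucose release and gluconeogenesis these were Slc37a4, Pck1 and Fbp1 (-0.04 each). The muscle synthase gene Gys1 and the glycogenin gene Gyg lay below the floor on all 5 arrays.

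Among fructose genes beside Khk, the fructose transporter gene Slc2a5 had 0.09 at 10 weeks, -0.57 at 1 week and -0.98 with atorvastatin. Tkfc, whose enzyme phosphorylates glyceraldehyde from fructose, had 0.56, -0.19 and -0.86 in the same order. Glyctk, the glycerate kinase gene, had 0.35, -0.11 and 0.01. With the brightest probe sets all 3 had the sign of Khk in both diet comparisons, but with the chow array of 1 week as the reference Tkfc had -0.06 and Glyctk -0.01 for the diet at 10 weeks. Another Glyctk probe set, 1424994_at, gave 0.86 at 10 weeks and 0.06 at 1 week. In these 3 comparisons 0 of 3 passed 2-fold. Slc2a5 was past it on the diet at 10 weeks against 1 week (1.35), and it was also higher at 10 weeks between the chow arrays (0.69). In the opposite branch, the glucose 6-phosphatase gene G6pc had -1.43 for the diet at 10 weeks, -0.54 at 1 week and -0.57 with atorvastatin. Pck1, the phosphoenolpyruvate carboxykinase gene of gluconeogenesis, had -0.98, -0.21 and -0.04. With atorvastatin against chow G6pc had -2.01 and Pck1 -1.02, and for both genes the 10-week chow array was the highest of the 5.

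Genes with the most similar pattern were sought among 4434 genes that were above the floor on all 5 arrays and spanned at least 0.6 on the log2 scale. Likeness was the Pearson correlation of log2 signals over the 5 arrays, which share scaling and any array effect, so the values are descriptions. For Gys2 the closest were Gpd2 (0.992), Ift172 (0.987) and Ifi35 (0.983), and 13 genes reached 0.95. Gpd2, the mitochondrial glycerol 3-phosphate dehydrogenase gene, read 700.2 and 1014 on chow and diet at 1 week, and 576, 935 and 573 on chow, diet and atorvastatin at 10 weeks. For Khk they were Snx22 (0.998), Slc10a6 (0.997) and Stambp (0.994), and 91 genes reached 0.95. For Pgk1 1438640_x_at they were Upk1a (0.982), Id3 (0.976) and Tigd5 (0.975), and 5 genes reached it. The brightest Pfkl probe set spanned less than 0.6 and was not compared.

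Markers of liver cell types moved between the arrays as well. All 8 hepatocyte markers were lower on the diet than on chow at 10 weeks (median -0.51), and their summed signal was 213834 and 187213 on chow and diet at 1 week, and 382589, 265941 and 264622 on chow, diet and atorvastatin at 10 weeks. The 10 macrophage and Kupffer cell markers summed to 14367, 12409, 9316, 16239 and 23291 in the same order. For the diet at 10 weeks 4 of 9 measured markers were past 2-fold higher, against 3.63% of all genes. The 6 endothelial markers summed to 3281, 2545, 1734, 3663 and 2559, with 3 of 6 past 2-fold higher in that comparison. Between the chow arrays all 10 and all 6 were lower at 10 weeks, 3 and 2 of them past 2-fold, against 1.97% of all genes. A low 10-week chow array thus enters these counts. Red blood cell, skeletal muscle and neutrophil markers summed to 339 to 641, 460 to 802 and 771 to 1226; Epb42, Myh4, Mylpf and Camp lay below the floor on all arrays. The hepatocyte markers ran opposite to Gys2, Khk and Pfkl in the 10-week diet comparison. On the diet at 10 weeks against 1 week, 7 of 8 were higher (median 0.51), the direction of Khk and both Pfkl probe sets. Between the chow arrays all 8 were higher at 10 weeks (median 0.81). The part of cell make-up in the members' ratios was not tested. In pooled tissue, fewer cells of a type and less RNA per cell cannot be told apart.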

How the data were processed

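The authors deposited 1 signal intensity per probe set and array, made with MAS5 per the submitters' processing notes. On the deposited table the 2% trimmed mean lay between 500.21 and 500.24 on each array. Detection calls were not used here. Each array was scaled to a 2% trimmed mean of 500, 64 control probe sets were left out, signals were floored at the 40th percentile (138.7) and log2 ratios were taken. Of 22690 probe sets, 20393 have 1 gene symbol, 691 several and 1606 are not listed in the platform annotation. A ratio was taken where either of its arrays exceeded the floor, and a side at the floor makes the fold a lower bound. Groups came from the titles, and the labels name no batch. With 1 array per group no model was fitted; the number of arrays limits the precision.

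Some listed genes are not reported here. The members and gene lists were chosen with earlier results of these data known. Named are all members and listed genes past 2-fold or acting beside a member. Also named are the 3 nearest patterns for members spanning at least 0.6 on the log2 scale. Tkfc, Glyctk, Gys1, Gyg, Pgm1, Gsk3b, Aldoa, Pgd, Pgls and Taldo1 were added after their values were seen. So were Rpia, Slc37a4, Fbp1, Cdh5, Lyve1 and the probe sets named beside the brightest. Alternatives were other scalings, a lower (20th percentile) and a higher (60th) floor, a pseudocount of 50, rules of 1.5-fold and 3-fold, other chow references and other handling of probe sets. Ratios were tested on simulated data with known folds. Python 3.11.15, numpy 2.4.6, pandas 2.3.3, scipy 1.17.1, R 4.3.3 and limma 3.58.1 were used.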

Additional observations from a re-analysis of the deposited data

Results flagged for a closer look

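Of 49 member probe sets and brightest probe sets of the listed genes measured in both diet comparisons, 6 (12.2%) had a diet ratio of opposite signs at 10 weeks and at 1 week that differed by at least 2-fold; this difference was not tested, since each group is 1 array. Of all 8420 genes measured in both, 13.2% met the same rule, so the count is near the background. Among the members it was Pgk1 1438640_x_at, where the log2 ratio was -0.47 at 10 weeks and 0.79 at 1 week, a difference of -1.26. Pklr 1421258_a_at had 1.27 and -0.80, a difference of 2.07, while its probe set 1438711_at was positive at both times. Ldhb 1416183_a_at had 1.38 and -0.49, a difference of 1.86. Aldoa 1416921_x_at, a probe set of an aldolase gene, had -0.67 and 0.44, a difference of -1.11, while 1439375_x_at had 0.12 and 0.21 and 1434799_x_at had -0.05 and 0.19. Hk2 1422612_at had -1.08 and 0.12, a difference of -1.20, with the 10-week diet signal at the floor. Pgm2 1453283_at had 0.40 and -0.94, a difference of 1.35, with the 10-week chow signal at the floor. With the chow array of 1 week as the reference its value for the diet at 10 weeks was -1.06, of the same sign as at 1 week.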

How the results depend on the processing

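No paired analysis was possible because each group holds 1 array. The count of member probe sets past the fold rule stayed at 0 under the other scalings, floors, pseudocount, chow references and the 3-fold rule; with the 1.5-fold rule it was 3 for the diet at 10 weeks, 2 at 1 week, 1 each for atorvastatin against the diet, the diet at 10 weeks against 1 week and the chow pair, and 0 for atorvastatin against chow. The diet ratios of Gys2 kept their sign, from 0.60 to 0.89 at 10 weeks and from 0.58 to 0.76 at 1 week, as did Khk at 10 weeks, from 0.67 to 0.78. The gene value of Pgk1 changed sign without its x probe sets, to 0.09 at 10 weeks, -0.02 at 1 week and -0.17 for the chow pair.

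Counts of the other pathway genes moved by over 1.5 times as follows. With the 1.5-fold rule they were 14 for the diet at 10 weeks, 6 at 1 week, 12 for atorvastatin against the diet, 8 against chow, 12 for the diet at 10 weeks against 1 week and 12 for the chow pair. With the 3-fold rule they were 0 for the diet at 10 weeks, 0 for atorvastatin against the diet, 1 against chow, 1 for the diet times and 0 for the chow pair. With the floor at the 20th percentile they were 1 at 1 week, 5 for atorvastatin against chow, 5 for the diet times and 6 for the chow pair. With the floor at the 60th percentile they were 1 for atorvastatin against the diet, 1 for the diet times and 1 for the chow pair, and with the pseudocount 1 at 1 week. The mean of both chow arrays gave 4 for the diet at 10 weeks and 1 for atorvastatin against chow. Quantile normalization, cyclic loess and the mean of all probe sets each gave 1 for atorvastatin against chow, and leaving out x and s probe sets gave 5 for the diet times. The cause of these moves was not tested for any setting.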

Other observations

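The pentose phosphate pathway, which shares glucose 6-phosphate with the members, had 6 measured genes. With atorvastatin against the diet the brightest probe sets of the 6 had a median log2 ratio of -0.38, from -0.64 for Pgd, the 6-phosphogluconate dehydrogenase gene, to a value with no direction for Taldo1, the transaldolase gene, and 0 of 6 passed 2-fold. The 4 probe sets of Pgd disagreed: 1437380_x_at had 1.66 for the diet at 10 weeks and -1.12 with atorvastatin, while 1436771_x_at had -0.23 and 0.08. For the diet at 10 weeks 3 were positive and 3 negative (median 0.04), and at 1 week 4 were positive and 2 negative (median 0.24). Pgls, the phosphogluconolactonase gene, had 0.43 and 0.28 in the diet comparisons and -0.62 with atorvastatin. Between the chow arrays the median of the 6 was 0.37, close in size to that with atorvastatin.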
